A study of Mus musculus with 8 samples.

Results

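The genes described here are 8 genes of the mature osteoclast, the cell that dissolves bone: Ctsk, Acp5, Mmp9, Clcn7, Dcstamp, Itgb3, Src and Calcr. Their mRNAs were examined for called peaks of N4-acetylcytidine (ac4C), a cytosine acetylated by the enzyme that Nat10 encodes. Members were peaks that shared 1 or more bases, on the gene's strand, with a fixed span of the mouse genome build mm39. The rule used position only and no score. It took 106 of 105252 peaks, and these merged into 65 of 75389 regions, a region being a stretch of overlapping same-strand peaks of any list.

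The cells were bone marrow-derived monocytes kept under osteoclast-forming conditions with RANKL, the cytokine that starts the osteoclast programme, for 3 days. One group came from WT mice and the other from mice labelled as having a conditional knockout (CKO) of Nat10; RANKL treatment was common to both. The promoter driving the Cre recombinase, the age and sex of the mice and the number of mice per culture were not given in the sources. Each genotype had 2 immunoprecipitated (IP) samples, enriched with an ac4C antibody, and 2 input samples, and each IP sample with its input gave 1 peak list (WT 1, WT 2, CKO 1 and CKO 2).

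Bone resorption takes place in a sealed space beneath the osteoclast. Integrin alpha-v beta-3 and the kinase Src organise the actin ring that seals it, a proton pump working with the chloride-proton exchanger ClC-7 acidifies it, and cathepsin K, with help from other proteases, cuts the exposed collagen. Osteoclasts reach their size through fusion of precursors, for which DC-STAMP is required, and calcitonin stops resorption through its receptor, a late marker of the cell type.

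The lists held 28065 (WT 1), 24851 (WT 2), 28087 (CKO 1) and 24249 (CKO 2) peaks, with no read counts, so the depth behind a peak is unknown. Nothing states that replicates came from separate animals or cultures, so differences between lists may be technical. An absent peak means that none passed the authors' threshold or that it was not kept in the mRNA list. With RNA amount not measured here, a lower transcript level and less ac4C per transcript cannot be told apart. With 2 lists against 2, an exact two-sided permutation test over lists cannot give a p below 0.333, so no difference between genotypes below can pass a threshold of 0.05. Exon positions and the bases under the peaks were not analysed here.

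Of the 4 lists, 3 (WT 1, CKO 1 and CKO 2) had peaks in all 8 genes and WT 2 had peaks in 6. The genes without a WT 2 peak were Dcstamp and Calcr. On the opposite strand the same spans held 0 peaks. How strand was assigned is not given in the sources, so this 0 does not measure strand specificity. Since the members were chosen by position and markers of other marrow cells were not located here, the labelled cell type was not checked further.

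The 8 genes together held 31 peaks in WT 1, 20 in WT 2, 21 in CKO 1 and 34 in CKO 2. The lowest and highest of these values were thus 1 WT and 1 CKO list, and the genotypes overlapped. WT averaged 25.5 ± 7.78 peaks and CKO averaged 27.5 ± 9.19 (SD, n = 2 each). As a share of each list the members made up 0.11%, 0.0805%, 0.0748% and 0.14% in the same order. The covered length, 4182 and 2953 bases in WT against 3016 and 3840 in CKO, overlapped as well.

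By gene, the genotypes did not overlap in peak number for 3 of the 8. Mmp9 had more peaks in both WT lists, and Calcr and Src had more in both CKO lists. The exact two-sided p was 0.333 for each of the 3 genes, the smallest possible. For comparison, same-strand peaks of all genes no more than 5000 bases apart were joined into loci, and 5793 loci held 6 or more peaks, 6 being the fewest of any of the 8 genes. Every WT list exceeded every CKO list in 10.0% of these loci and every CKO list exceeded every WT list in 10.8%. Loci are not gene spans, and with 8 genes, 1 higher in WT and 2 higher in CKO are too few to set apart from these shares.

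**Figure D1:**
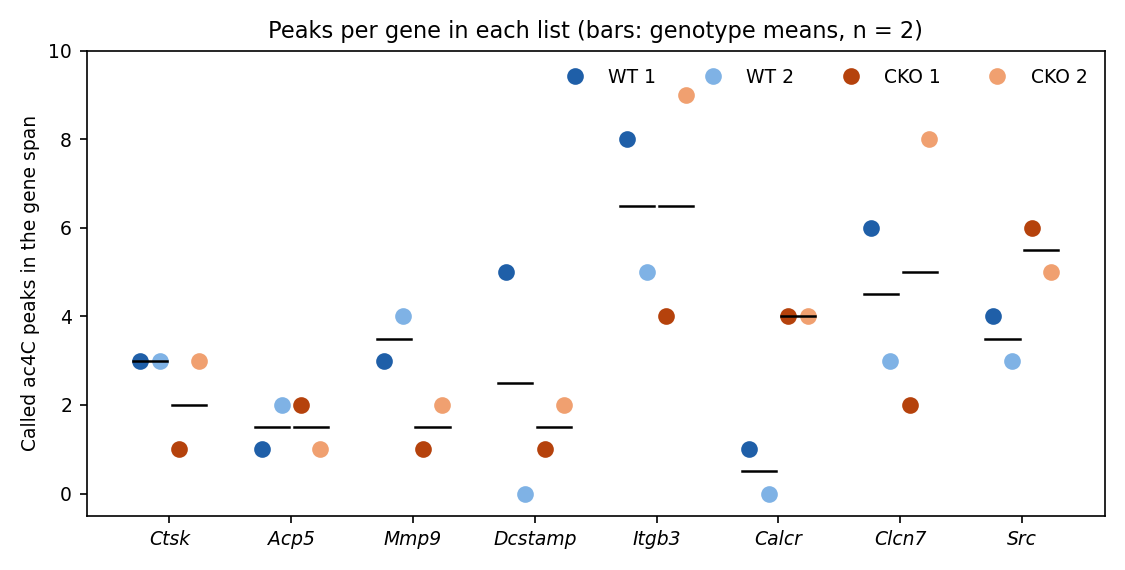
Called peaks in each of the 8 gene spans (y axis, number of peaks), 1 point per list, with black bars at the genotype means (n = 2 lists). Mmp9 points of WT (3 and 4) lie above those of CKO (1 and 2), Calcr and Src points of CKO lie above those of WT, and the points of the other 5 genes overlap.

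The number of lists that held a region ranged from 1 to 4. Among the 65 member regions, 39 (60.0%) were private to 1 list, while 14 recurred in 2, 9 in 3 and 3 (4.62%) in every list. Over all regions 69.1% were in 1 list and 0.964% in all 4. The 3 regions in all lists lay in Ctsk, Acp5 and Mmp9, the 3 secreted or lysosomal enzymes of the set. Whether recurrence relates to this class of gene was not tested. Regions held by both WT lists and neither CKO list, called lost below, numbered 2 of 65 (3.08%, against 4.26% of all regions). Regions held by both CKO lists and neither WT list, called gained, numbered 0 of 65, against 3.64% of all regions. Neither count stands apart from its background at this number of regions.

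The lists of a genotype shared positions to unequal degrees. Of the 40 member regions with a WT peak, 11 (27.5%) were held by both WT lists, where over all regions 13.6% of those with a WT peak were. Of the 49 with a CKO peak, 6 (12.2%) were held by both CKO lists, where over all regions 12.5% were. Ctsk alone supplied 3 of the 11 regions common to the WT lists. With so few regions, whether the genotypes differed in this was not tested.

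Of the 9 member regions in 3 lists, CKO 1 was the missing list in 6 and WT 2 in 3. The 6 were split evenly over Ctsk, Clcn7 and Itgb3, and the 3 lay in Clcn7, Itgb3 and Calcr. WT 1 and CKO 2 held all 9. Over all 4705 regions in 3 lists, the share missing from CKO 1 was 22.7% and from WT 2 27.3%, close to the 22.5% of WT 1 and 27.5% of CKO 2. With 9 regions, whether CKO 1 was missing more often in these genes than elsewhere was not tested.

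**Figure D2:**
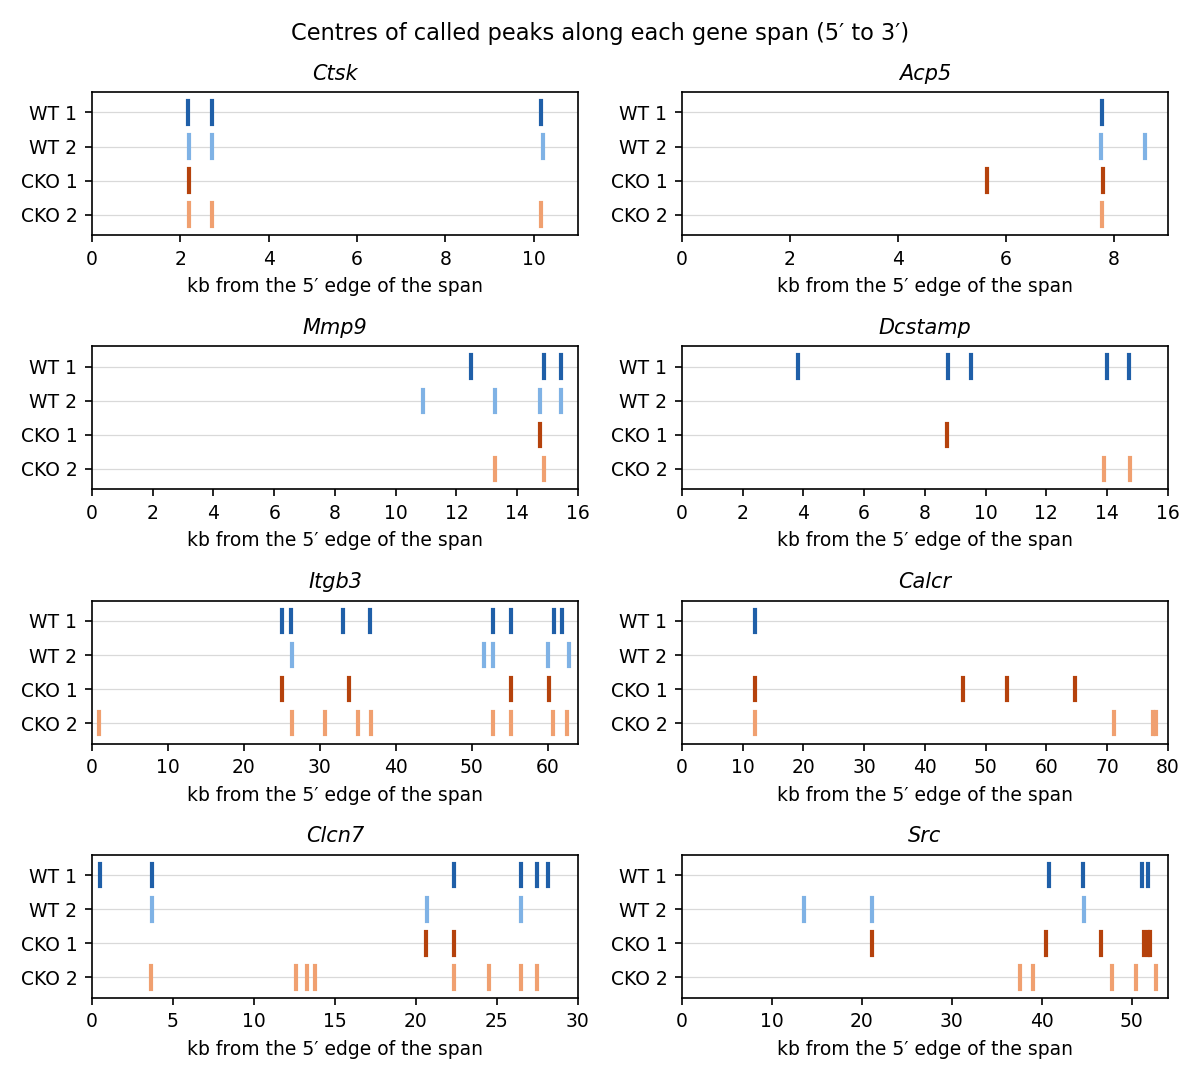
Centres of the called peaks along each gene span, from its 5′ to its 3′ edge (x axis, kb; 1 row per list). Ctsk peaks stand in 3 columns shared between lists, whereas the 4 Calcr peaks of CKO 1 and the 4 of CKO 2 share 1 position, 12.0 kb from the 5′ edge.

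Ctsk encodes cathepsin K, the main collagen-cutting protease of the osteoclast. It had 3 peaks in WT 1, 3 in WT 2, 1 in CKO 1 and 3 in CKO 2. The genotypes overlapped, since CKO 2 equalled both WT lists and CKO 1 was the low one. The difference between genotype means was -1.0 peaks; without CKO 1 it was 0.0, and without CKO 2 it was -2.0 with both WT lists above the remaining CKO list.

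These 10 Ctsk peaks fell on only 3 regions, none of them private to 1 list. The first, at chr3:95408145-95408251 on the plus strand, was in all 4 lists and all 4 peaks began at the same base. Its peaks were 60 (WT 1), 107 (WT 2), 107 (CKO 1) and 80 (CKO 2) bases wide. The second, chr3:95408658-95408780, was 123 bases long, with the same first and last base in WT 1, WT 2 and CKO 2.

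The remaining Ctsk region, chr3:95416134-95416281, was the highest scored of the gene in each list that held it. The authors' score put it at percentile 97.64 of WT 1, 99.51 of WT 2 and 98.99 of CKO 2. A percentile is a peak's rank from the lowest score up, as a percent of that list's peaks, with tied scores given their mean rank. CKO 1 had no peak there. The peaks of WT 1 and CKO 2 were both 49 bases wide and that of WT 2 was 148. Since lists were called separately, a percentile ranks a peak only within its list. A mean percentile, where given, is over the lists that held the region and gives only a rough order of regions.

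Acp5 encodes tartrate-resistant acid phosphatase (TRAP), the classical stain for osteoclasts. It had 1 peak in WT 1, 2 in WT 2, 2 in CKO 1 and 1 in CKO 2, and both genotypes averaged 1.5 ± 0.707 (SD, n = 2 each). The region in all 4 lists was chr9:22039072-22039316 on the minus strand. It stood at percentile 80.93 (WT 1), 93.59 (WT 2), 99.26 (CKO 1) and 90.94 (CKO 2), high in every list. Its 5′ edges fell on bases 22039315 (WT 1), 22039316 (WT 2 and CKO 1) and 22039314 (CKO 2).

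The other Acp5 peaks were each in 1 list but ranked near the top of it. The peak of CKO 1 at chr9:22041264-22041425 stood at percentile 99.99, the highest of the 21 member peaks of that list. No other list had a peak there, the nearest WT peak being 1948 bases away. The peak of WT 2 at chr9:22038284-22038558 stood at percentile 99.01, and the nearest CKO peak was 514 bases away.

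Mmp9 encodes gelatinase B, a protease that digests denatured collagen and aids osteoclast migration. It had 3 peaks in WT 1 and 4 in WT 2, against 1 in CKO 1 and 2 in CKO 2. WT averaged 3.5 ± 0.707 and CKO 1.5 ± 0.707 (SD, n = 2 each), a difference of -2.0 peaks. The numbers did not overlap, but the covered lengths did: 909 and 528 bases in WT, 102 and 561 in CKO. With peaks under 200 bases left out, the peak numbers overlapped too.

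All Mmp9 peaks lay 10.9 to 15.5 kb from the 5′ edge of the 16 kb span. The region in all 4 lists, chr2:164796693-164797102 on the plus strand, began at the same base in each list. Its peaks were 408 bases wide in WT 1 and 410 in CKO 2, but 88 in WT 2 and 102 in CKO 1, so the wide and the narrow forms each occurred in both genotypes. The lost region, chr2:164797329-164797572, followed 227 bases further on, with peaks of 201 bases (percentile 70.20 of WT 1) and 244 bases (percentile 39.62 of WT 2). With only the better-scored 50% of each list kept, this region was no longer lost, and the region at 164796693 was, since both of its CKO peaks lay below their list's median score.

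The highest ranked Mmp9 peak of WT 1, at chr2:164794340-164794639 (percentile 99.89), had no counterpart in the other lists. A region of 151 bases, chr2:164795184-164795334, had identical edges in WT 2 (percentile 46.50) and CKO 2 (percentile 93.90). Both Mmp9 regions with a CKO peak thus also had a WT peak.

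**Figure D3:**
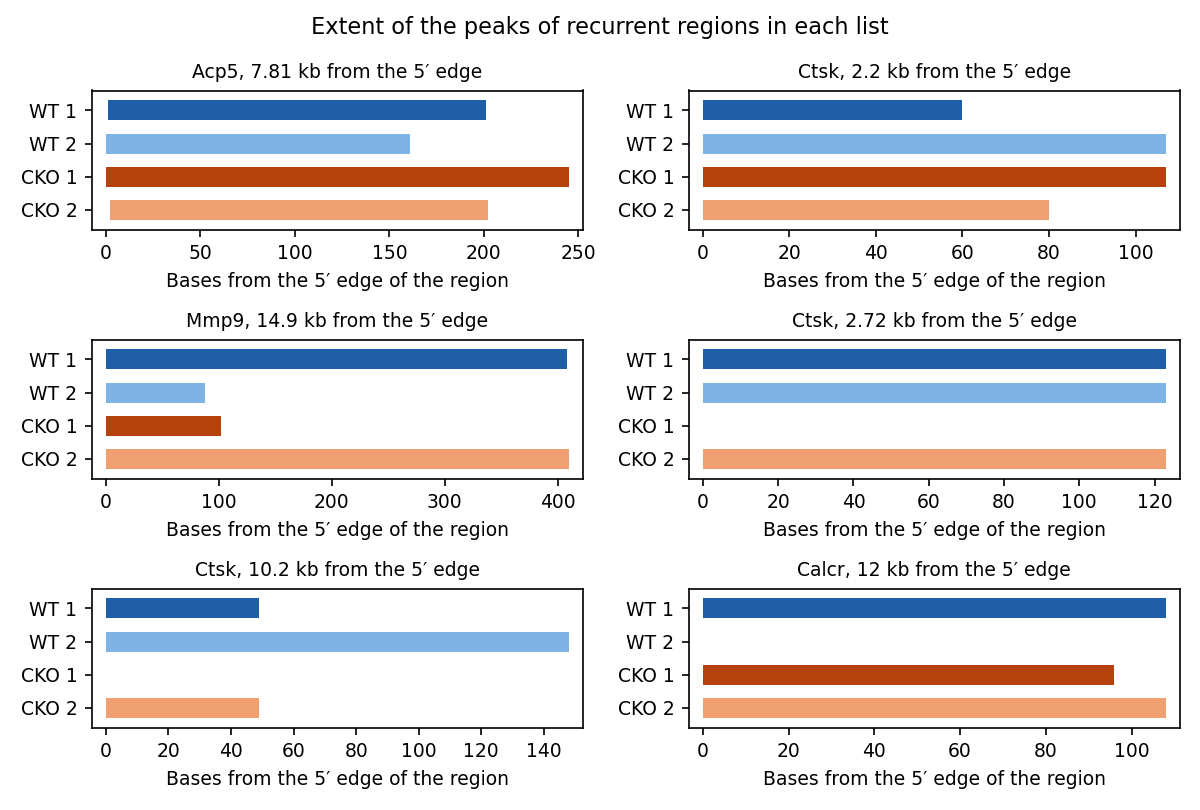
Extent of each list's peak (bars) within the 3 regions held by all 4 lists and 3 regions of Ctsk and Calcr held by 3 lists (x axis, bases from the region's 5′ edge). Within Ctsk and Mmp9 every bar of a panel starts at the same base while at least 1 of the 3′ ends differs, except in the Ctsk region at 2.72 kb, where both edges coincide.

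Clcn7 encodes ClC-7, which moves chloride in exchange for protons as the resorption space is acidified. It had 6 peaks in WT 1, 3 in WT 2, 2 in CKO 1 and 8 in CKO 2. WT averaged 4.5 ± 2.12 and CKO 5.0 ± 4.24 (SD, n = 2 each), and the CKO lists held both the lowest and the highest number. Leaving out CKO 1 or CKO 2 turned the difference of 0.5 peaks into 3.5 or -2.5.

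Of the 11 Clcn7 regions, 3 were in 3 lists, 2 in 2 lists and 6 in 1 list. The region chr17:25378442-25378501 had a peak of exactly 60 bases with the same edges in WT 1, WT 2 and CKO 2. The region at chr17:25374342-25374417 began at the same base in WT 1, CKO 1 and CKO 2. The region with the highest mean percentile, chr17:25372543-25372764, stood at percentile 95.32 of WT 2 and 99.61 of CKO 1, 1 list of each genotype. CKO 2 alone held 4 regions, 3 of them between 12.6 and 13.8 kb from the 5′ edge of the span.

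Dcstamp encodes DC-STAMP, the membrane protein required for fusion of osteoclast precursors. It had 5 peaks in WT 1, 0 in WT 2, 1 in CKO 1 and 2 in CKO 2. The WT lists thus held the most and the fewest peaks, and their SD of 3.54 exceeded the difference of -1.0 between genotype means. Without WT 1 the difference was 1.5 and without WT 2 it was -3.5.

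None of the 6 Dcstamp regions was held by both lists of a genotype. The 2 regions in more than 1 list paired WT 1 with a CKO list: chr15:39617589-39617906 on the plus strand with CKO 1, and chr15:39623725-39623767 with CKO 2. In the first, percentiles were 76.67 (WT 1) and 79.76 (CKO 1). In the second the peaks began at the same base and were 27 and 43 bases wide. The best Dcstamp peak of WT 1, at chr15:39612718-39612917, reached percentile 80.78, and the best of CKO 2 reached 39.11.

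Itgb3 encodes integrin beta-3, the receptor subunit with which osteoclasts attach to bone matrix. With 26 peaks in 15 regions it had the most of the 8 genes, in a span of 64 kb. The lists held 8 (WT 1), 5 (WT 2), 4 (CKO 1) and 9 (CKO 2) peaks, with a mean of 6.5 in both genotypes (SD 2.12 in WT and 3.54 in CKO, n = 2 each). The genotypes overlapped, and the difference of 0.0 became 2.5 without CKO 1 and -2.5 without CKO 2. Covered lengths of 939 and 1044 bases in WT and 673 and 1150 in CKO overlapped too.

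In Itgb3, 3 regions were in 3 lists, 5 in 2 lists and 7 in 1 list, with 0 lost and 0 gained. Peaks at chr11:104524224-104524340 on the plus strand all began at the same base but were 9 (WT 1), 117 (WT 2) and 115 (CKO 2) bases wide. A common first base was also found at 104550862 (WT 1, WT 2 and CKO 2) and at 104553155 (WT 1, CKO 1 and CKO 2). The narrowest member peak of all, 3 bases at chr11:104531118-104531120, was in WT 1. Near the 3′ edge of the span, 4 regions from 60.1 to 62.8 kb held peaks of all 4 lists, yet no region there was in more than 2 lists.

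The region with the highest mean percentile in Itgb3, chr11:104534563-104534791, stood at percentile 83.92 of WT 1 and 84.31 of CKO 2. The region at 104553155 held the best Itgb3 peak of CKO 1 (percentile 97.61) and of WT 1 (88.77), and its CKO 2 peak stood at 63.66.

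Src encodes the tyrosine kinase that acts downstream of the integrin in the sealing zone and ruffled border. It had 4 peaks in WT 1 and 3 in WT 2, against 6 in CKO 1 and 5 in CKO 2. The WT lists averaged 3.5 ± 0.707 peaks and the CKO lists 5.5 ± 0.707 (SD, n = 2 each), a difference of 2.0 peaks. Neither the numbers nor the covered lengths overlapped: 287 and 210 bases in WT, 755 and 472 in CKO. Covered length sums the widths of the same peaks, and its share over all loci was not analysed here. Among peaks of 200 bases or more the difference was 1.0. It rested on 1 peak of 263 bases in CKO 1 and 1 of 200 bases in CKO 2. Just under this limit, WT 1 had a peak of 198 bases and CKO 1 a peak of 199.

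The higher number in the CKO lists did not come from common positions. The 11 CKO peaks of Src lay in 11 regions, of which both CKO lists held 0. The only Src region held by both lists of a genotype was the lost region chr2:157304630-157304728 on the plus strand. There the peaks began at the same base and were 6 bases (percentile 9.79 of WT 1) and 99 bases (percentile 97.84 of WT 2) wide. The nearest CKO peak was 1821 bases away. With equal numbers of peaks per list, the 6-base peak fell below the score limit and the region was no longer lost.

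Of the 15 Src regions, 12 were in 1 list. The others outside the lost region paired 1 WT with 1 CKO list: chr2:157281121-157281138 in WT 2 and CKO 1, and chr2:157311673-157311871 in WT 1 and CKO 1, each with a common first base. The highest ranked Src peak of CKO 2 was at chr2:157312598-157312797 (percentile 99.12), 728 bases from the nearest WT peak. Peaks gathered towards the 3′ edge, with 11 of 18 in the last 20% of the span.

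Calcr encodes the calcitonin receptor. It had 1 peak in WT 1 and 0 in WT 2, against 4 in each CKO list. WT averaged 0.5 ± 0.707 and CKO 4.0 ± 0.0 (SD, n = 2 each), and the difference of 3.5 peaks was the widest of the 8 genes. Covered lengths, which sum the widths of these same peaks, were 108 and 0 bases in WT and 444 and 569 in CKO. They did not overlap, and no share over all loci was available beside them. With peaks under 200 bases left out the numbers overlapped and the difference was 1.0.

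As in Src, the 2 CKO lists placed their Calcr peaks differently. Of 7 regions, both CKO lists held 1, and that region also had the WT 1 peak. It lay at chr6:3752952-3753059 on the minus strand, where WT 1 and CKO 2 had the same edges, 108 bases wide, and CKO 1 the same 5′ edge. It stood at percentile 93.58 of WT 1, 72.74 of CKO 1 and 43.53 of CKO 2.

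The other 6 Calcr regions were each in 1 CKO list. Those of CKO 1 lay 46.4, 53.5 and 64.8 kb from the 5′ edge of the 80 kb span, and those of CKO 2 at 71.1, 77.6 and 78.1 kb. The CKO 2 peak at 71.1 kb, chr6:3693849-3693909, had the highest mean percentile of the gene's regions (94.29, from 1 list). The nearest WT peak was 34234 to 65922 bases away. Calcr thus had the widest gap in peak number among the 8 genes and 0 gained regions.

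**Figure D4:**
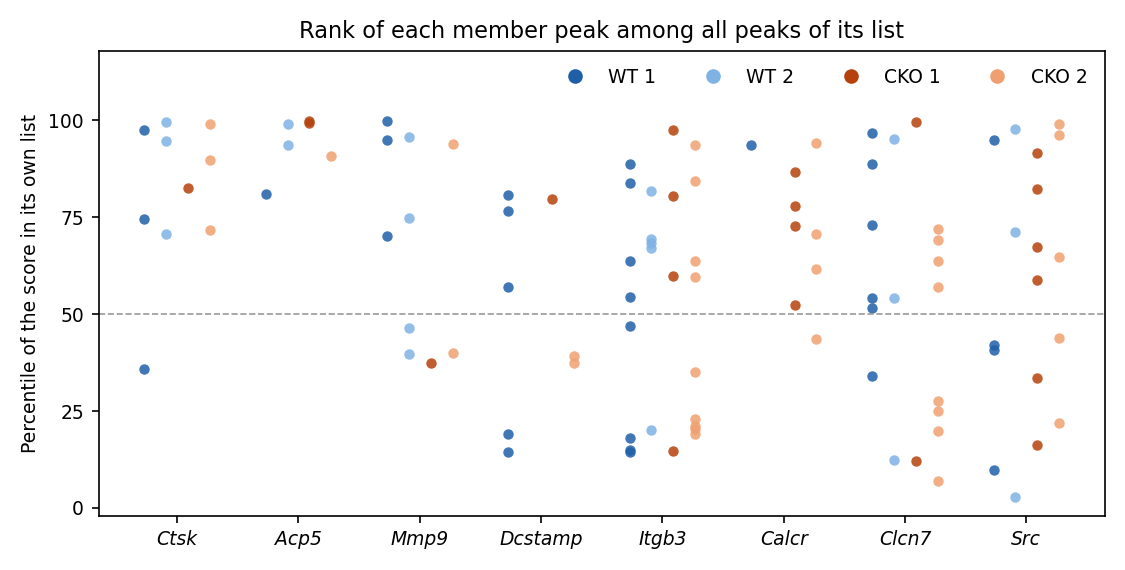
Percentile of each member peak's score among all peaks of its own list (y axis; dashed line at 50), by gene and list. Every Acp5 peak stands above percentile 80 in its list, whereas peaks of Itgb3, Clcn7 and Src spread from below 20 to above 95.

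Score rank, width, edges and place within the span were not used by the rule, but the members were chosen with earlier results of these data known. Of the 106 peaks, 25 (23.6%) lay above percentile 90 of their list, where 10.0% of all peaks do by construction. They were unevenly spread: 4 of 10 Ctsk peaks and 5 of 6 Acp5 peaks, but 0 of 8 Dcstamp peaks. A region in several lists counted once per list, so the 25 were not 25 separate positions. Those counted more than once included the Ctsk region at 95416134 and the Acp5 region at 22039072. The median percentile of the member peaks was 63.7 (WT 1), 71.0 (WT 2), 77.8 (CKO 1) and 60.6 (CKO 2), and lay above 50 in every list. Ctsk reached percentile 97.64 or more in the 3 lists that held its region at 95416134, and Acp5 reached 99.01 in WT 2 and 99.99 in CKO 1.

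Of the member peaks, 76 of 106 (71.7%) were under 200 bases, against 67.0% of all peaks. Their median width was 108 and 112 bases in WT and 107 and 83 in CKO, where the medians of the whole lists were 113, 110, 115 and 120. Peaks of exactly 200 bases made up 9.43% of the member peaks and 20.0% of all peaks.

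Separately called lists often placed a peak edge on the same base. Of the 26 member regions in 2 or more lists, 19 (73.1%) had a first or last base common to 2 or more lists, and 74.0% of all such regions did. In 6 of the 26 (23.1%), a first base and a last base were each common to 2 or more lists, against 14.1% of all. The sources used here do not say how peaks were restricted to mRNA.

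Of the 106 peaks, 56 (52.8%) had their centre in the last 20% of the span; the share over other genes was not analysed here. By gene this held for 5 of 6 Acp5, 8 of 10 Mmp9, 11 of 18 Src, 14 of 26 Itgb3 and 4 of 8 Dcstamp peaks. It held for fewer in Calcr (4 of 9), Clcn7 (7 of 19) and Ctsk (3 of 10). The spans include introns and are given to the nearest kb, so these shares are not shares of mRNA length.

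Peak names carry a running number, and some numbers were missing between the first and last peak of a gene. They may be calls not kept in these lists, which was not checked. There were 24 such numbers over all genes and lists. Ctsk, Acp5 and Mmp9 had 0 in every list. Src had 8 in CKO 1, Dcstamp 4 in WT 1 and Itgb3 3 in CKO 2, the highest values. The position and strand of any such calls were not analysed here.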

How the data were processed

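From 8 samples the authors deposited 4 peak lists, 1 per pair of IP and input, assigned to genotype through the library code in the sample titles. Per the submitters' processing notes, the tools were MACS2 2.2.7.1, STAR 2.7.8a and fastp 0.20.1, with mm39. Peak scores are the authors' deposited values. The sources used here do not give the MACS2 quantity behind the score, how peaks were cut to mRNA or how strand was assigned. The lowest deposited score was 5.0 to 5.03 in the 4 lists.

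Positions were read as BED and are printed counting from 1. Peaks were merged on 1 shared base per strand, tested on simulated lists. Spans come from the rule for the members; all 8 were 0.02 kb shorter to 6.1 kb longer than the gene's length in a RefSeq table of GRCm38.p6, whose coordinates were not used. Members and lists were chosen with earlier results of these data known. All 8 genes are named; regions named under the rule fixed with them are those in all lists, lost or gained, and the highest by mean percentile. Further regions were singled out after their values were seen, mostly for common edges. The planned lists of other osteoclast genes and of markers of other cells were not run, since no mm39 annotation was used. Alternatives were the score, width, span, strand, overlap and merging settings, leaving out 1 list, and the replicate block. Python 3.11.15, numpy 2.4.6, pandas 2.3.3 and matplotlib 3.10.9 were used.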

Additional observations from a re-analysis of the deposited data

How the results depend on the processing

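Requiring peaks wholly inside the span, or taking either strand, changed no value. The genotype difference over the 8 genes was 2.0 peaks as reported, 2.0 with equal numbers of peaks per list, 0.0 in the top 50% of each list and -2.0 for peaks of 200 bases or more; leaving out 1 list gave -4.5 (without CKO 2) to 8.5 (without CKO 1). Lost member regions fell to 1 when only the better-scored 50%, equal numbers of peaks or peaks of 200 bases or more were kept, and leaving out 1 list gave 2 to 12. In the better-scored 50% that region was Mmp9 164796693, which was in all 4 lists as reported. Neither region lost as reported remained lost there. Gained member regions were 0 under the 7 settings that kept all lists, and leaving out 1 list gave 0 to 16, because 1 list then stands for its genotype. Of the 3 regions in all 4 lists, 1 (Acp5) was left in the better-scored 50%, and 0 among peaks that reached 200 bases. Of the 5 settings that select peaks, those on span and strand could change nothing. No peak crossed a span edge or lay on the other strand. Under the other settings (better-scored 50%, equal numbers, width) Src kept higher numbers in both CKO lists. For peaks of at least 200 bases its difference was 1.0 in place of 2.0, resting on 1 peak in each CKO list. For Mmp9 and Calcr the genotypes stayed apart in the better-scored 50% and with equal numbers, but overlapped for peaks of 200 bases or more. Loci chained across 2000 or 10000 bases gave 7.78% and 11.5% with WT higher and 12.8% and 10.8% with CKO higher; a limit of 4 peaks, chosen after seeing the data, gave 8.72% and 8.67%. The labels share replicate numbers 1 and 2 between genotypes without saying that they mark pairs. Over 27045 loci the deviations of same-numbered lists correlated at -0.016, a measure that leaves out shifts common to a whole list. Same-numbered lists were close in size, with 28065 (WT 1) and 28087 (CKO 1) peaks against 24851 (WT 2) and 24249 (CKO 2). Median scores were 72.3 (WT 1) and 71.3 (CKO 1), but 29.5 (WT 2) and 117.0 (CKO 2). Whether the numbers mark pairs was not tested. With the replicate block the difference over the 8 genes was 2.0. That value equals the unblocked one by arithmetic, because each block holds 1 list of each genotype, so it tests nothing. Within blocks, 15.5 lost and 17.5 gained regions were counted on average, 1 list standing for each genotype. Unknown read depth limits all of these values.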
